A study of Mus musculus with 8 samples.

Results

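The 8 genes described here encode the pore-forming alpha-1 subunits of voltage-gated calcium channels: Cacna1a of the P/Q type, Cacna1b of the N type, Cacna1e of the R type, Cacna1c and Cacna1d of the L type, and Cacna1g, Cacna1h and Cacna1i of the T type. They were taken by gene symbol from a table of 15035 genes, and all 8 were found there. The other 2 pore subunit genes of the family, Cacna1f and Cacna1s, were not analysed here. Bulk RNA sequencing of poly(A) RNA had been carried out on auditory nerves dissected from mouse cochleas at postnatal day 21. The 4 wild-type libraries carry the numbers 1 to 4, and the 4 libraries from mice labelled as Mef2c heterozygotes (+/-) carry the numbers 5 to 8. Mef2c encodes a MADS-box transcription factor. Each library holds the pooled nerves of the 2 cochleas of 1 mouse, so the spread between libraries is a spread between mice. The labels give neither the Mef2c allele nor the strain, sex, litter or sequencing batch.

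Voltage-gated calcium channels open on depolarization and turn an electrical signal into calcium entry. P/Q, N and R type channels sit mainly at nerve terminals and drive transmitter release, L type channels couple activity to slower responses and to gene expression, and T type channels open near rest and shape firing. In the cochlea, the L type channel built on Cacna1d carries the calcium current of the inner hair cell synapse, and spiral ganglion neurons, the cells of the auditory nerve, are known to hold several types at once. The P/Q, N, R and L type pores work with beta and alpha-2-delta subunits that bring them to the membrane, while T type pores can work without them.

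The libraries held an estimated 13363354 to 21507209 counted reads, and values are given as the authors' normalized counts. Neuron markers were abundant in every library: all 12 were present, and their summed level was 171441 to 234571 normalized counts in wild type and 189179 to 221456 in libraries labelled heterozygote. Mef2c had 402.2 to 508.7 normalized counts in wild type and was higher, not lower, in libraries labelled heterozygote, at 583.3 to 735.1. The limma-trend adjusted p was 0.186, and the authors' deposited table gives a ratio of 1.44 and an FDR of 0.0162. Without the allele, gene-level values cannot settle whether this goes against the label. All directions given therefore compare libraries by their labels. Summed oligodendrocyte markers did not overlap between genotypes, at 190022 to 258691 in wild type against 96865 to 130928, and neither did summed astrocyte markers, at 22038 to 32236 against 12013 to 19950. Neutrophil markers, of which 3 of 4 were in the table, did not overlap either and were the other way round, with sums of 77.3 to 170 in wild type against 313.6 to 4567; on the log2 scale S100a8, S100a9 and Ngp differed by 4.09, 3.62 and 3.73 (adjusted p 0.0763, 0.0920 and 0.0920, limma-trend). Wild-type library 1 stood apart from the others, with 4.28% of its normalized counts in the ribosomal RNA precursor gene Rn45s against 1.598% to 2.91% elsewhere. Its summed fibroblast and osteoblast markers were 47099 and 8210, against 23446 to 27841 and 2098 to 3667 in wild-type libraries 2 to 4. Libraries labelled heterozygote had 33143 to 47363 and 4394 to 10253, so these sums overlapped between genotypes only through wild-type library 1. The part of these sums in the pore subunit values was not tested. In a bulk sample, fewer cells of a type and less RNA per cell cannot be told apart.

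Set against transcript length, the P/Q type subunit Cacna1a was the highest of the 8 pore subunits. Levels were compared between genes as normalized counts per kilobase of the longest annotated transcript, over all 8 libraries. Cacna1a had 134.9 ± 27.9 normalized counts per kilobase (SD, n = 8). Cacna1d followed at 64.8 ± 15.4 and Cacna1g at 50.7 ± 12.5 on the same scale. Cacna1a lay above Cacna1d in 8 of 8 libraries and their ranges did not overlap. Cacna1d lay above Cacna1g in 7 of 8, with overlapping ranges, the exception being wild-type library 1. On this scale these 3 genes formed an upper tier, 1 each of the P/Q, L and T types.

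On the same scale a second tier began 2.88-fold below Cacna1g. In per-kilobase units, Cacna1c had 17.6 ± 4.85, Cacna1b 12.8 ± 2.27, Cacna1h 11.6 ± 3.70 and Cacna1e 10.9 ± 3.82 (SD, n = 8 each). Cacna1c exceeded Cacna1b in 7 of 8 libraries, while Cacna1b exceeded Cacna1h, and Cacna1h exceeded Cacna1e, in 4 of 8 each. The order of Cacna1b, Cacna1h and Cacna1e was therefore not resolved beyond the spread between libraries. The tiers also depend on the length assumed for each gene. Without division by length, Cacna1g had a mean of 425.4 normalized counts and Cacna1c 231.7, with overlapping ranges. Cacna1e, at 162.2, then lay above Cacna1b at 124.4 and Cacna1h at 95.1. The longest transcript of Cacna1c has 13162 bases and that of Cacna1g 8383, against longest coding lengths of 6666 and 7143. Cacna1i came last at 0.90 ± 0.54 per kilobase, below Cacna1e in 8 of 8 libraries. Even the leading subunit was of middling abundance in the tissue, since Cacna1a lay at the 49.7th percentile of 14668 genes with a known length, Cacna1d at the 30.3rd and Cacna1e at the 6.27th.

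Summed by channel class, the P/Q type took 43.8% ± 6.32 of the per-kilobase pore subunit level in wild type and 44.2% ± 2.92 in libraries labelled heterozygote (SD, n = 4 per genotype). The L type took 25.8% ± 6.31 and 27.9% ± 1.25, and the T type 23.1% ± 9.61 and 19.6% ± 2.37, in the same order. The N type held 4.43% ± 0.82 and 4.08% ± 0.93. The R type, which is Cacna1e alone, held 2.84% ± 0.50 and 4.22% ± 0.97. The L and T shares of wild-type library 1 were unlike those of any other library, at 17.2% and 36.1% against 25.1% to 31.0% and 13.8% to 23.7% in the other 7. These shares are a description with no test, and they depend on the length assumed for each gene: by coding length the mean P/Q share over all libraries was 37.7% in place of 44.0%, and the R share 5.91% in place of 3.53%.

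**Figure D1:**
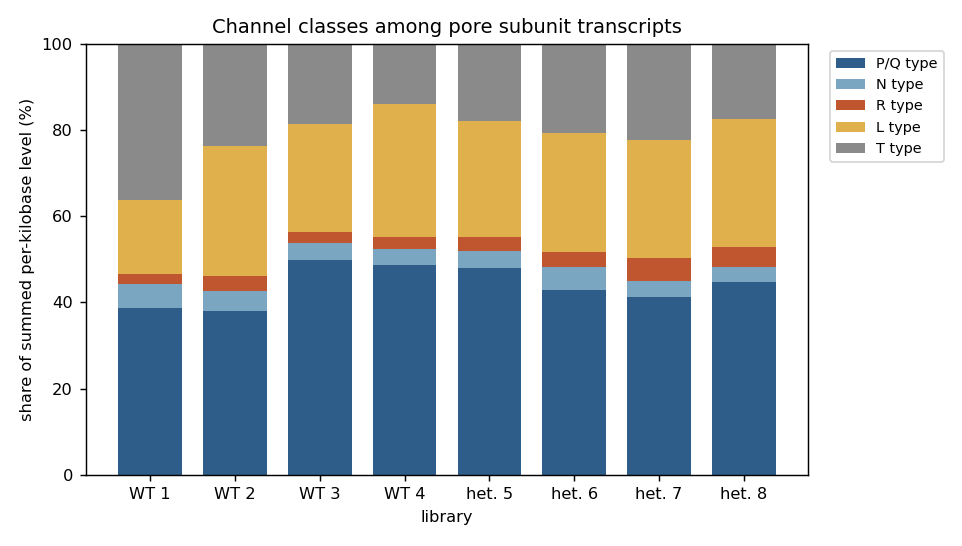
Share of the summed per-kilobase level of the 8 pore subunit transcripts (vertical axis, %) taken by each channel class in each library (horizontal axis; WT, wild type; het., labelled Mef2c heterozygote). The P/Q class takes 38.0% to 49.9% in every library, and wild-type library 1 has the largest T share at 36.1%.

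The design asks which transcripts differ between nerves of wild-type mice and mice that carry 1 disrupted copy of Mef2c. None of the pore subunit genes passed the test. Of the 8, 7 reached 10 normalized counts in at least 4 libraries and were tested with limma-trend among 14870 genes, and 0 of these 7 had a Benjamini-Hochberg adjusted p under 0.05, where 0.0807% of all genes tested did (0.00672% with higher values). At an unadjusted limma-trend p under 0.05 there were 2, Cacna1e and Cacna1c, both with higher values in libraries labelled heterozygote. The background for that count is 6.72% of genes higher, 7.34% lower and 14.1% in either direction. The genotypes did not overlap in 1 of the 7, Cacna1e, against 3.4% of all genes with the same direction and 7.26% in either direction.

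The fitted log2 fold change, heterozygote minus wild type on the log2(value + 1) scale, was above 0 for all 7, as for 52.3% of all genes tested, with a median of 0.27 against 0.02 over all genes. All 7 are also among the longest transcripts of the table. In the longest 10% of genes, those of at least 6865 bases, the median log2 fold change was 0.23, 86.3% of 1452 genes had a value above 0, and 24.0% had an unadjusted limma-trend p under 0.05 with a higher value. The genotypes did not overlap, with higher values in libraries labelled heterozygote, in 9.30% of these longest genes. After a smooth trend with transcript length was removed from each library, the pore subunits had a median of 0.06, with 4 of 7 above 0 and 3 below. The part of length in these differences was not tested beyond that correction. Without wild-type library 1 the median of the 7 was 0.17, again with 7 of 7 above 0, and without wild-type library 3 it was 0.43. When wild-type library 2 or 4, or library 5, 6 or 8, was left out, 6 of 7 were above 0.

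**Figure D2:**
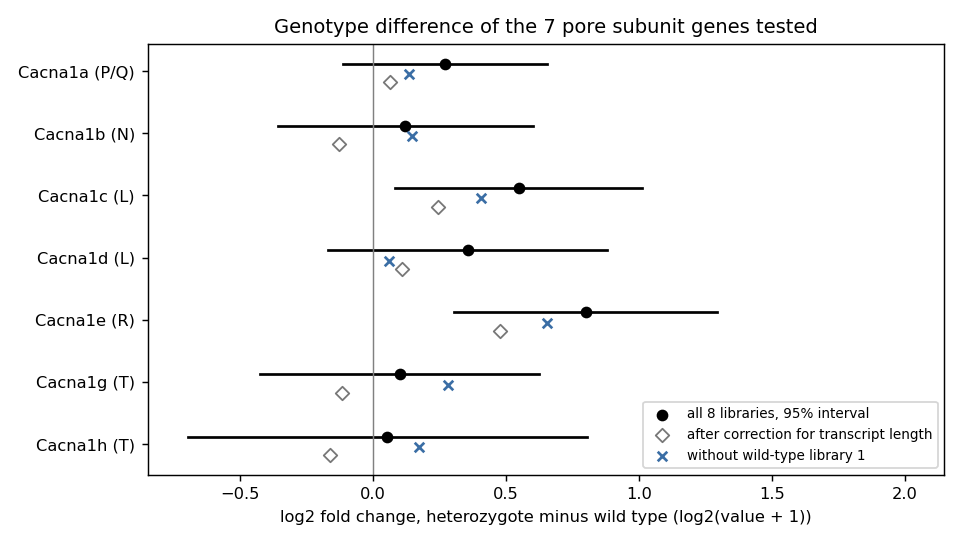
Log2 fold change (horizontal axis, heterozygote minus wild type on the log2(value + 1) scale) of the 7 pore subunit genes tested (vertical axis, channel type in brackets). Black points with lines are the fit on all 8 libraries with its 95% interval, diamonds the value after correction for transcript length, and crosses the value without wild-type library 1; the Cacna1e and Cacna1c intervals lie above 0 and the other 5 include it.

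Cacna1e, the R type pore of nerve terminals and dendrites, had the largest difference among the pore subunits. Its wild-type libraries held 85.7, 142.7, 125.6 and 118.4 normalized counts, and the libraries labelled heterozygote 162.9, 176.0, 237.5 and 248.5. Every library labelled heterozygote lay above every wild-type library, with libraries 7 and 8 the highest. Summed neutrophil markers were also highest in libraries 7 and 8, at 4567 and 3508 normalized counts, with 878.7 in library 5 and 313.6 in library 6; their part in the Cacna1e difference was not tested. The means were 118.1 ± 23.9 and 206.2 ± 43.0 (SD, n = 4 each). On the log2 scale the difference was 0.80 (SE 0.23, 95% interval 0.30 to 1.30), or 1.74-fold. The limma-trend p was 0.00436 before adjustment and 0.236 after Benjamini-Hochberg adjustment over all genes, so the gene ranked 274th of 14870 without passing 0.05.

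The authors' deposited table gives Cacna1e a ratio of 1.74 and an FDR of 0.0499, just under 0.05, as for 1.61% of the genes to which that table gives an FDR and 0.672% with a ratio above 1. No other pore subunit had an FDR under 0.05 in the authors' deposited table; the next was Cacna1c at 0.211. With limma-trend, the unadjusted p of Cacna1e stayed under 0.05 in all 20 alternatives tried, between 0.00162 and 0.0305. Its log2 fold change ran from 0.48 to 0.90, the smallest after the correction for transcript length. The adjusted p passed 0.05 in 1 of them, at 0.0474 when the leading principal component of the residuals was added to the model, where 576 genes passed.

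Cacna1e lies on the minus strand of chr1:154390731-154884501 (GRCm38), and its longest transcript of 14921 bases in 47 exons is the longest of the 8. RefSeq places a start of the gene well inside that span, and the letters atg follow directly after its first base. Whether transcription begins at that start was not tested, so the window around it may not be a promoter. The window around that start is shown because Cacna1e is the member with the largest difference, beside the GC-rich one of the 3 windows of Cacna1c, the member with the next largest. Each runs from 250 bases before to 50 after the start, 5′ to 3′ on the minus strand in GRCm38.p6, and capitals mark GGGCGG on either strand, the GC box. The Cacna1e window is chr1:154725871-154726170 and the Cacna1c window chr6:119108446-119108745.

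Cacna1e: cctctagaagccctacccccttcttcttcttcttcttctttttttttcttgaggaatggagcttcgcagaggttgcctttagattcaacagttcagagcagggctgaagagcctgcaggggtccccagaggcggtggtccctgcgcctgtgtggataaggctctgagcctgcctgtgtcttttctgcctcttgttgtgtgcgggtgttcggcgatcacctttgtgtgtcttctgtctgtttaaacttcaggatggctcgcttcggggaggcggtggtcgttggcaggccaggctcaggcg
Cacna1c: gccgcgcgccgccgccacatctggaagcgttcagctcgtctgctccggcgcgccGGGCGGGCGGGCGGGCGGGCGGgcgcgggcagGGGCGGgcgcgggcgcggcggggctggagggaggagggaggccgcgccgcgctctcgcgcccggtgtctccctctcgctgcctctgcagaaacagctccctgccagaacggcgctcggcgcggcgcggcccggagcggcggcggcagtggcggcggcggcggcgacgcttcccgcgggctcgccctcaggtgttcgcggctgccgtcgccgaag

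The Cacna1e window is 55.3% G and C with 11 CpG sites and no GC box, and this Cacna1c window is 81.3% G and C with 57 CpG sites and 6 GC boxes, overlapping matches counted separately. RefSeq windows were found for 5 of the 8 genes, with 3 for Cacna1c, 2 for Cacna1d and 1 each for Cacna1b, Cacna1e and Cacna1i. Of these 8 windows, 3 held GGGCGG, against 35.7% of all 32851 windows of the same length. None held the MEF2 consensus or TGACGTCA, the cyclic AMP response element, on either strand; 1.86% and 1.79% of all windows do. A window without a match says only that these letters are not in it.

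Cacna1a, the P/Q type pore that carries most release at many central synapses, had 719.0, 813.8, 1324.5 and 1066.5 normalized counts in wild type and 1277.4, 1118.8, 976.3 and 1254.5 in libraries labelled heterozygote. All 4 of the latter fell inside the wild-type range. The fitted difference was 0.27 on the log2 scale (95% interval -0.11 to 0.65; limma-trend p 0.150, adjusted 0.489). Leaving out wild-type library 1 gave 0.13, and leaving out wild-type library 3 gave 0.43 (unadjusted limma-trend p 0.0144). Wild-type library 3 also had the highest summed neuron markers and wild-type library 1 the lowest; the part of this in the Cacna1a value was not tested. Cacna1a spans chr8:84388440-84640246 on the plus strand.

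Cacna1b, the N type pore that shares release with the P/Q type, had 124.6, 123.8, 124.7 and 100.3 normalized counts in wild type and 124.9, 174.3, 110.3 and 112.5 in libraries labelled heterozygote. The genotypes overlapped, and library 6 alone stood clearly higher. A log2 fold change of 0.12 was fitted (95% interval -0.36 to 0.60, limma-trend adjusted p 0.817). It was -0.026 without library 6. Cacna1b lies on the minus strand of chr2:24603887-24763152.

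Cacna1c, the L type pore of heart, smooth muscle and many neurons, had 137.6, 187.7, 248.4 and 182.4 normalized counts in wild type and 211.8, 318.0, 254.4 and 313.2 in libraries labelled heterozygote. Of the latter, 3 lay above every wild-type library, and library 5 lay below wild-type library 3. The means were 189.0 ± 45.5 and 274.4 ± 50.7 (SD, n = 4 each). This is a log2 fold change of 0.55 (SE 0.21, 95% interval 0.08 to 1.01; limma-trend p 0.0249, adjusted 0.306). The ratio in the authors' deposited table is 1.45.

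The Cacna1c difference was 0.24 after the correction for transcript length, with an unadjusted limma-trend p of 0.176. The unadjusted p also exceeded 0.05 without wild-type library 1, library 6 or library 8 (log2 fold changes 0.41, 0.47 and 0.48, limma-trend p 0.0596, 0.0730 and 0.0740). Summed smooth muscle and pericyte markers overlapped between genotypes, at 7084 to 9023 normalized counts in wild type and 8144 to 9051 in libraries labelled heterozygote, with 9 of 10 markers present and none at 0. Of those 9, 0 passed 0.05 after adjustment and 3, Acta2, Tagln and Des, had an unadjusted limma-trend p under 0.05 with lower values (7.34% of all genes). The other way, 5 of the 9 had a log2 fold change above 0, among them Notch3, whose genotypes did not overlap (391.9 to 540.2 normalized counts against 550.7 to 620.7). Over all genes tested, 7.26% did not overlap. Cacna1c is on the minus strand of chr6:118587240-119196418 and its longest transcript has 13162 bases.

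Cacna1d, the L type pore of the inner hair cell synapse, had 287.9, 646.2, 629.8 and 694.9 normalized counts in wild type and 723.1, 640.6, 600.3 and 784.5 in libraries labelled heterozygote. Wild-type library 1 held less than any other library, and the other 7 lay between 600.3 and 784.5. The log2 fold change of 0.35 (95% interval -0.17 to 0.88, limma-trend adjusted p 0.509) rested on that library and was 0.06 without it. It was 0.03 without wild-type library 1 and library 5, the libraries with 12 and 7.6 normalized counts of Xist against 5175 to 8615 in the rest. Hair cell markers were all present, with sums of 4139 to 7341 normalized counts in wild type and 3003 to 6164 in libraries labelled heterozygote, lowest in library 6. Their part in the Cacna1d level was not tested. Cacna1d lies on the minus strand of chr14:30039939-30491455.

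The T type genes showed no difference beyond the spread between libraries. Cacna1g had 578.8, 481.8, 385.9 and 234.3 normalized counts in wild type and 378.0, 475.7, 491.9 and 376.9 in libraries labelled heterozygote, which all fell inside the wild-type range. Its log2 fold change was 0.10 (95% interval -0.42 to 0.63), turning to -0.15 without wild-type library 4. Cacna1h had 114.2, 51.3, 130.2 and 80.9 against 107.5, 89.7, 57.5 and 129.4, with a log2 fold change of 0.05 and a 95% interval of -0.70 to 0.81. Both intervals hold changes of up to about 1.54-fold (Cacna1g) and 1.75-fold (Cacna1h) upwards, so the data do not show that these genes are alike in the 2 genotypes. Limma-trend adjusted p values were 0.867 and 0.954. Cacna1g lies at chr11:94408391-94474198 and Cacna1h at chr17:25374285-25433783, both on the minus strand.

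Cacna1i, the third T type pore, was close to the limit of these libraries. It had 16.9, 3.9, 3.7 and 4.8 normalized counts in wild type and 16.3, 7.8, 10.4 and 6.6 in libraries labelled heterozygote, where 3 reads correspond to 2.37 to 3.89. It did not reach the minimum for testing. The highest values came from wild-type library 1 and library 5, 1 of each genotype. These are also the libraries low in Xist, at 12 and 7.6 normalized counts, and the part of this in the Cacna1i values was not tested. With no minimum, 0.62 was fitted on the log2 scale (SE 0.65, limma-trend adjusted p 0.671). The gene lies on the plus strand of chr15:80287238-80398279.

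**Figure D3:**
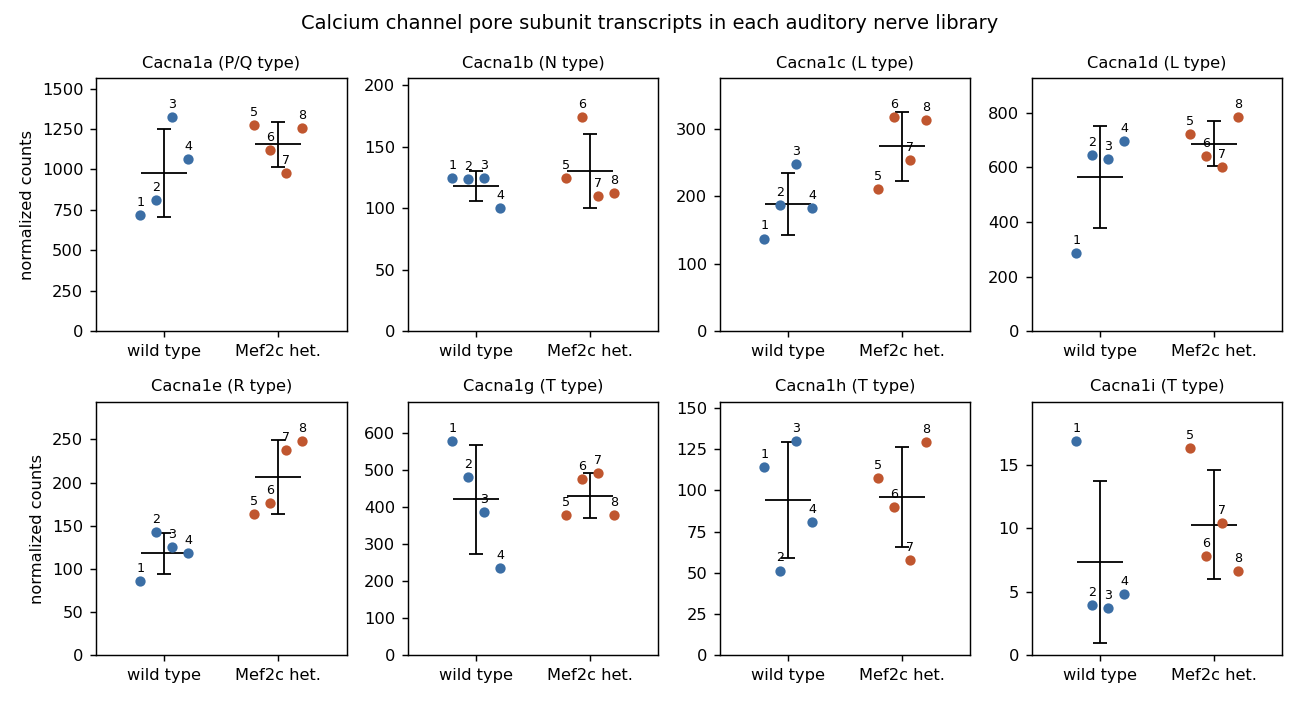
Normalized counts (vertical axis, from 0, scaled per gene) of each pore subunit gene in the 4 wild-type libraries (blue) and the 4 libraries labelled Mef2c heterozygote (orange), numbered by replicate; bars are the mean and SD. The genotypes overlap in every gene but Cacna1e, and wild-type library 1 is the lowest of all 8 libraries for Cacna1a, Cacna1c, Cacna1d and Cacna1e.

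Across the 8 libraries the members did not vary as a block. As a description over libraries that share genotype and depth differences, Pearson's r of log2 values was 0.82 between Cacna1c and Cacna1e, 0.75 between Cacna1a and Cacna1d and -0.59 between Cacna1d and Cacna1g. Without wild-type library 1 these were 0.68, 0.44 and -0.48 over 7 libraries. Cacna1a and Cacna1h had an r of 0.49 over all 8 and 0.96 without that library. Among 13356 genes with a mean of at least 50 normalized counts, the patterns most like that of Cacna1e were those of Chdh, Abhd15 and Znfx1 (r of 0.98, 0.97 and 0.97 over 8 libraries). Those most like Cacna1a were Ttc13, Kcna2 and Cntnap2 (each 0.99), and those most like Cacna1d were Gnaz, Pde1c and Rictor (0.99, 0.99 and 0.98).

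For Cacna1c the nearest patterns included those of Zfhx4 and Ablim1 (r of 0.98 each), for Cacna1g Sh3bp2, Lepr and Tmem45a (0.98, 0.97 and 0.97), and for Cacna1h Napg, Ttc26 and Slc38a9 (0.96, 0.95 and 0.93). The closest to Cacna1b were Trak2, Stk39 and Slc2a13 at 0.93, 0.93 and 0.91. Cacna1i was nearest to Nasp, Slx4 and Lmf2 at 0.96 each, but its counts are too few to rank patterns.

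The auxiliary subunits were read from the same fit. Of 16 listed genes, 13 were tested, 0 passed 0.05 after adjustment, and 10 had a log2 fold change above 0 (52.3% of all genes) with a median of 0.13. At an unadjusted limma-trend p under 0.05 there was 1 with higher values, Cacna2d4, and 1 with lower values, Cacng4, beside 6.72% and 7.34% of all genes. The genotypes did not overlap in these 2, nor in 7.26% of all genes.

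The beta subunits, which carry high-voltage-activated pores to the membrane, were led by Cacnb3 at 1619 ± 216 normalized counts in wild type and 1781 ± 288 in libraries labelled heterozygote (SD, n = 4 per genotype). Cacnb4 had 1198 ± 309 and 1322 ± 159, Cacnb2 had 466 ± 125 and 496 ± 82.4, and Cacnb1 had 354 ± 82.5 and 395.5 ± 23.9. All 4 overlapped between genotypes, with log2 fold changes of 0.12 to 0.19 and limma-trend adjusted p values of 0.631 to 0.804. Without wild-type library 1, Cacnb1, Cacnb3 and Cacnb4 were at 0.018, 0.038 and 0.016 and Cacnb2 at -0.087.

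Among the alpha-2-delta subunits, which raise surface expression of the channels and place them at release sites, Cacna2d3 had 898 ± 102 and 919 ± 149 normalized counts, Cacna2d1 had 695.5 ± 170.5 and 643 ± 89.2, and Cacna2d2 had 275 ± 40.0 and 293 ± 21.5 (wild type, then labelled heterozygote; SD, n = 4 each). Their log2 fold changes were 0.03, -0.09 and 0.10, within the spread between libraries. Cacna2d4, best known as the partner of the L type channel of photoreceptors, had 129.8, 22.1, 173.2 and 32.6 normalized counts in wild type and 202.0, 196.0, 298.7 and 315.0 in libraries labelled heterozygote. The genotypes did not overlap, and wild-type libraries 2 and 4 were far below the other 2. The fit gave 1.94 on the log2 scale (SE 0.56, 95% interval 0.72 to 3.15; limma-trend p 0.00461, adjusted 0.238). It passed 0.05 without wild-type library 3, its highest wild-type library (log2 fold change 2.41, limma-trend adjusted p 0.0424), where 221 genes passed. With sample quality weights it also passed (2.61 and 0.0269), as 96 genes did, against 12 in the main fit. Its adjusted p ran from 0.0269 to 0.618 over the 20 alternatives.

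The gamma genes include Cacng2 and Cacng4, whose products are known chiefly as auxiliary subunits of AMPA receptors. Cacng4 had 739.7, 656.1, 594.0 and 585.8 normalized counts in wild type and 496.4, 569.0, 517.4 and 487.6 in libraries labelled heterozygote, all below any wild-type library. Its log2 fold change was -0.31 (limma-trend p 0.0232, adjusted 0.301). Cacng2 had a log2 fold change of 0.27 and an adjusted p of 0.395.

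**Figure D4:**
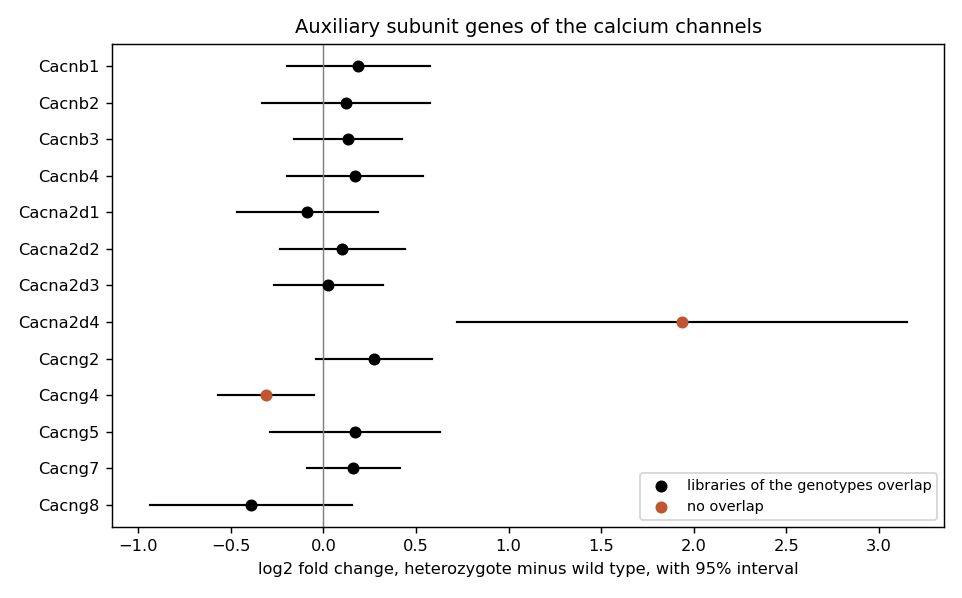
Log2 fold change with its 95% interval (horizontal axis, heterozygote minus wild type) of the 13 auxiliary subunit genes tested (vertical axis). Orange points are genes whose libraries do not overlap between genotypes, Cacna2d4 at 1.94 and Cacng4 at -0.31; no gene passed 0.05 after adjustment.

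Of 19 tested regulators and release-site partners, 0 passed after adjustment, and 2 with higher and 1 with lower values had an unadjusted limma-trend p under 0.05, which 14.1% of all genes had. Bsn, which encodes the active-zone scaffold bassoon, had 849 ± 295 normalized counts in wild type against 1260.0 ± 221 (SD, n = 4 each; log2 fold change 0.62, limma-trend adjusted p 0.278; 0.28 once corrected for transcript length). Cabp2, a calcium-binding protein that tunes the hair cell L type channel, had 235.0 to 324.9 in wild type and 290.1 to 540.9 in libraries labelled heterozygote (log2 fold change 0.67, limma-trend adjusted p 0.259). The genotypes did not overlap in 2 of the 19, Sri and Rrad, as in 7.26% of all genes. Sri, which encodes the calcium-binding protein sorcin, was lower, at 1375 to 1695 in wild type against 1222 to 1348 (log2 fold change -0.28, limma-trend adjusted p 0.266). Rrad was higher, at 27.8 to 40.3 in wild type against 43.3 to 71.3 (log2 fold change 0.64, limma-trend adjusted p 0.380).

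Calcium stores, extrusion and buffers gave 0 of 18 past the adjusted threshold, with 15 above 0 (52.3% of all genes) and a median log2 fold change of 0.29 (0.02 over all genes). At an unadjusted limma-trend p under 0.05 there were 4 with higher and 1 with lower values, beside 6.72% and 7.34% of all genes. The 4 higher genes were Slc8a3, Ryr2, Itpr2 and Itpr3. After the correction for transcript length, their log2 fold changes were 0.81, 0.40, 0.16 and 0.21 (unadjusted limma-trend p 0.00146, 0.0619, 0.409 and 0.179). Atp2b1, Slc8a1 and Calb1, above 0 in the main fit, were then at -0.086, -0.20 and -0.057. The part of length was not tested beyond that correction. Slc8a3, a sodium-calcium exchanger, had 280.3, 352.5, 373.1 and 211.4 normalized counts in wild type. It had 422.5, 755.4, 525.8 and 577.6 in libraries labelled heterozygote, with no overlap, as for 7.26% of all genes. The log2 difference was 0.91 (SE 0.21; limma-trend p 0.00114, adjusted 0.180). Slc8a3 passed 0.05 without wild-type library 3, its highest wild-type library (limma-trend adjusted p 0.0476), where 221 genes passed against 12 in the main fit. It also passed with the leading principal component of the residuals in the model (limma-trend adjusted p 0.0410), where 576 genes passed. Pvalb, the calcium buffer parvalbumin, had a log2 fold change of -0.57 and Ryr2, a ryanodine receptor, of 0.74 (limma-trend adjusted p 0.259 and 0.295). After the correction for transcript length these were -0.35 and 0.40, and Ryr2 was 0.45 without wild-type library 1.

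Of 7 calcium-activated potassium channel genes tested, 0 passed after adjustment. At an unadjusted limma-trend p under 0.05 there was 1, Kcnmb1, with lower values, as for 7.34% of all genes. Kcnmb1, the smooth muscle beta subunit of the large-conductance channel, had 12.6 to 40.2 normalized counts in wild type and 1.9 to 13.9 in libraries labelled heterozygote (log2 fold change -1.79, limma-trend adjusted p 0.294). Its counts are few: the 1.9 of library 7 lies below the 2.83 that 3 reads correspond to there. The pore gene Kcnma1 had a log2 fold change of 0.47 and Kcnn4 of 0.58, with adjusted p values of 0.379 and 0.626; Kcnma1 was 0.18 after the correction for transcript length and 0.29 without wild-type library 1. In the calcium-dependent transcription pathway, 0 of 18 genes passed after adjustment and 3 had an unadjusted limma-trend p under 0.05, all with higher values, as for 6.72% of all genes. These were Nfatc1, Nfatc3 and Hdac4, with log2 fold changes of 0.53, 0.39 and 0.52 and adjusted p values of 0.279, 0.327 and 0.333. Without wild-type library 1, Nfatc3 was 0.23 and Hdac4 0.25; for Hdac4 that library's 229.7 normalized counts lay below the 483.1 to 613.7 of the other 7 libraries.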

How the data were processed

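Auditory nerves of mice at postnatal day 21 were sequenced as strand-specific poly(A) libraries from 50 ng of RNA with an integrity number of at least 7, per the labels' protocols. The submitters' processing notes name STAR, Partek, DESeq2 and the build mm10, without roles or versions; the annotation and the use of strand in counting are not given in the sources used here. The authors deposited 1 signal column per library. Most of its values lie near whole multiples of 1 step, as read counts divided by 1 size factor would, but not all do. The authors' deposited columns also give a p-value, an FDR, a ratio and its log2 value per gene, per the file headers.

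The value of 1 read was estimated as the step of which 88.5% to 91.7% of values below 1000 are whole multiples (within 0.05; 7.71% to 12.7% by chance), too few to count as recovered reads, so the main test used log values; limma-voom on the estimated reads was an alternative. Estimated reads limit precision through counting error only.

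Genes that reached 10 normalized counts in 4 or more libraries entered limma-trend on log2(value + 1), 4 libraries against 4 without covariates, with Benjamini-Hochberg adjustment over 14870 genes and a threshold of 0.05. Fold changes on this scale understate the change of low genes. The fit was tested on simulated data. Replicate numbers are not shared between genotypes. Lengths came from the longest GENCODE M21 transcript, matched by symbol for 97.6% of genes. Positions are GENCODE's, on GRCm38, which mm10 names too, and the windows are set around RefSeq's gene starts. Named genes are the members, Mef2c, the beta and alpha-2-delta genes, up to 3 genes of each companion list with the smallest p, and the 3 genes most like each member, of which 1 is not reported here; genes of the marker lists are named where a list stands beside a result, and Xist and Rn45s as checks of the libraries. The choice of Otof, Ocm and Gad1 followed a look at their values. Itpr2 and Itpr3 are named for their unadjusted p, and Rrad because its genotypes did not overlap. Atp2b1, Slc8a1 and Calb1 are named because their sign turned with the correction for transcript length. The members and lists were chosen with earlier results of these data known. Alternatives were quantile and upper-quartile scaling, pseudocounts of 0.1 and 10, other minimums, sample quality weights, limma-voom, a covariate (low Xist, or the leading principal component of the residuals), correction for transcript length (loess, span 0.5), and libraries left out. R 4.3.3, limma 3.58.1, Python 3.11.15, numpy 2.4.6, pandas 2.3.3, scipy 1.17.1 and matplotlib 3.10.9 were used.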

Additional observations from a re-analysis of the deposited data

Results flagged for a closer look

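In 26 groups of 4 libraries (8 genes and 5 class shares, in each genotype), the gap between the most extreme library and its neighbour was set against the range of the group, and 4 exceeded Dixon's critical ratio; about 1 group in 20, or 1.3 here, does so by chance. In wild type, Cacna1b was low in library 4 (100.3 normalized counts against 123.8 to 124.7, ratio 0.963), where the other 3 lie unusually close together. Cacna1d was low in wild-type library 1 (287.9 against 629.8 to 694.9, ratio 0.84). Cacna1i was high in wild-type library 1 (16.9 against 3.7 to 4.8, ratio 0.917). In the libraries labelled heterozygote, the L type share was high in library 8 (29.8% against 27.1% to 27.4%, ratio 0.872).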

How the results depend on the processing

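No paired analysis was possible because the genotypes share no replicate numbers. The number of pore subunit genes past the limma-trend adjusted threshold was 0 in 19 of 20 alternatives and 1 (Cacna1e) when the leading principal component of the residuals was added. Over all genes, 12 passed; the count was 7 with quantile normalization, 96 with sample quality weights, 576 with the principal component, 30 with the correction for transcript length, and 0 to 221 when each library was left out. It was 0 when wild-type library 2 or 4 or library 8 was left out, where 1919, 1451 and 1180 genes had an unadjusted p under 0.05, 221 without wild-type library 3, 7 without library 5, 6 without library 7 and 18 without library 6. Among auxiliary subunits 1 gene passed with sample quality weights and 0 to 1 with a library left out; among stores, extrusion and buffers 5 passed with the principal component and 0 to 1 with a library left out; in the transcription pathway 1 passed with the principal component. The cause was not tested. The correction for transcript length turned Cacna1b, Cacna1g and Cacna1h to -0.13, -0.12 and -0.16. With each library left out, Cacna1b ran from -0.026 (without library 6) to 0.19, Cacna1g from -0.15 (without wild-type library 4) to 0.28, and Cacna1h from -0.21 (without wild-type library 2) to 0.28, with -0.020 without library 5 and -0.11 without library 8. None of these passed a threshold in any fit. Cacna1a, Cacna1c, Cacna1d and Cacna1e kept their direction in all 20 alternatives. Without length scaling the P/Q and R shares were 38.7% and 5.83% of the normalized counts, and by coding length the P/Q, R and L shares were 37.7%, 5.91% and 32.6%; with a library left out all 5 shares stayed within 1 SD. A count near 3 reads, as for Cacna1i, limits what can be compared.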

Other observations

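Among the hair cell and release-site genes that accompany Cacna1d, values were higher for some and lower for others. Otof, the calcium sensor of the inner hair cell synapse, had 1254, 1490, 1662 and 1690 normalized counts in wild type and 2141, 1477, 2431 and 3018 in the libraries labelled heterozygote (log2 fold change 0.54; limma-trend p 0.0137, adjusted 0.278). Ocm, the outer hair cell buffer oncomodulin, had 1287, 1812, 827 and 3180 against 1115, 201.3, 868 and 724 (log2 fold change -1.36; limma-trend p 0.0178, adjusted 0.285). Neither passed 0.05 after adjustment, and the genotypes overlapped in both. Of the 8 hair cell markers, 4 were higher and 4 lower, with a median log2 fold change of 0.04. Only Otof (higher) and Ocm (lower) had an unadjusted limma-trend p under 0.05, beside 6.72% and 7.34% of all genes. The rest were Myo7a at 0.38, Tmc1 at 0.23, Pou4f3 at 0.18, Lhfpl5 at -0.10, Slc17a8 at -0.20 and Slc26a5 at -0.81.

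Cacna2d4 and Gad1, the GABA-synthesizing enzyme of inhibitory neurons, had the same order of high and low libraries to a large degree; the pair was chosen after its values were seen. Gad1 had 132.4, 36.3, 132.0 and 65.2 normalized counts in wild type and 155.3, 135.9, 252.6 and 265.3 in the libraries labelled heterozygote, so that in both genes wild-type libraries 2 and 4 were lowest and libraries 7 and 8 highest. The log2 fold change of Gad1 was 1.26, with a limma-trend adjusted p of 0.266. Pearson's r of the log2 values of both genes was 0.97 over the 8 libraries, as a description with no test. The other 3 genes in the table from the same list of granule cell and brainstem neuron markers did not share this pattern: Cbln1 had a log2 fold change of -0.64 (limma-trend p 0.0429, adjusted 0.343), Cbln3 of -0.08, and Zic1 of 0.28 with library 6 highest.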
